A study of Mus musculus with 6 samples.

Results

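The expression of 34 genes of the p53 pathway was examined in ureter explants treated with LiCl. The genes were taken from a list of symbols and found in the count table by their Ensembl identifiers. Of the 34, 33 had at least 10 counts in at least 3 of the 6 samples, and the same number was tested, out of 18188 genes tested and 56748 genes in the table. The gene left out was *Trp73*, which encodes a factor related to p53 and was counted 9, 7 and 3 times in the controls and 1, 2 and 4 times with LiCl. The list holds the factor gene *Trp53* and its relative *Trp73*, 4 genes of the feedback on p53, 13 apoptosis genes, 6 DNA repair genes and 9 genes of growth control and stress.

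Ureters came from wildtype NMRI mouse embryos at E12.5 and were kept as explants for 18 h. One group of 3 samples received 15 mM LiCl, which blocks the kinase GSK3B and serves as an agonist of WNT signaling, and the control group of 3 samples received water. Each sample was whole ureter, so epithelial and mesenchymal cells were measured together, and the number of ureters per sample is not given in the sources used here. Bulk RNA-Seq gave from 28473436 to 31266945 counts per sample, and the depth of both groups overlapped. No sample with another salt was analysed here, so lithium and added salt cannot be told apart. Nothing in the labels says that the samples came from separate litters, so p-values measure the spread between these samples.

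p53 is a transcription factor that cells stabilize after DNA damage and other stress. It is held low by MDM2, which marks it for degradation, and by MDM4, and it activates genes for cell cycle arrest, DNA repair and apoptosis, among them *Mdm2* itself as a negative feedback. Because p53 is regulated mainly as a protein, the amount of its mRNA is not a measure of its activity.

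After LiCl, 16 of the 33 tested genes were higher and 6 were lower (edgeR's quasi-likelihood test, Benjamini-Hochberg adjusted p under 0.05), which is 48.5% and 18.2%. Over all genes tested, 21.1% were higher and 22.4% were lower by the same test, 43.5% in either direction against 66.7% of the p53 pathway genes. The median log2 fold change was 0.26 over the 33 genes and -0.01 over all genes tested. The list was drawn up with earlier results of these samples known, so its share of higher genes is not independent evidence of a direction. With the further condition of a log2 fold change above 1, 4 genes were called higher, *Eda2r*, *Gdf15*, *Psrc1* and *Pmaip1*, and 0 were called lower below -1, also at an unadjusted p under 0.05 and with DESeq2. Over all genes tested, 2.74% were called higher and 4.59% lower at these thresholds. In bulk samples, fewer cells of a type and less RNA per cell cannot be told apart.

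**Figure D1:**
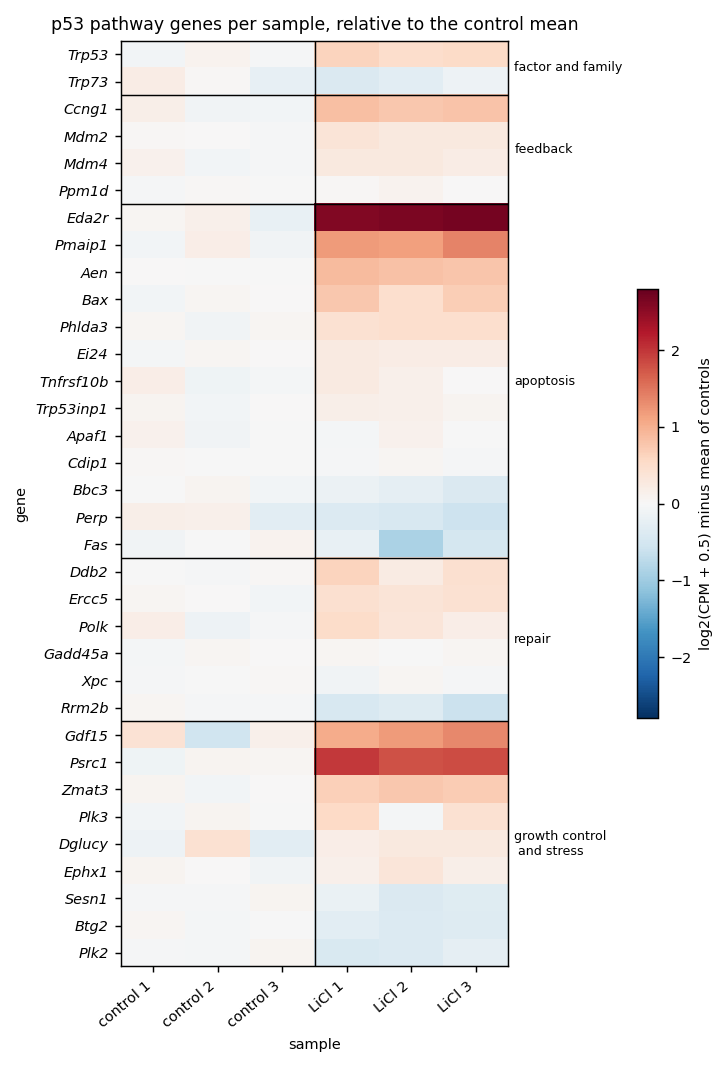
Level of the 34 genes in each of the 6 samples (columns), as log2(CPM + 0.5) minus the mean of the 3 controls, with genes in rows sorted by log2 fold change within each group. *Eda2r* and *Psrc1* were high in all 3 LiCl samples, and in 17 genes all 3 LiCl samples lay above all controls.

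In 17 of the 33 genes every LiCl sample lay above every control sample, and in 7 every LiCl sample lay below, against 26.4% and 27.8% of all genes tested, or 54.2% in either direction. The replicates of the p53 pathway genes were close to each other. The median SD of log2 CPM between replicates was 0.079 in the control and 0.074 with LiCl, against 0.106 and 0.108 over all genes tested. This comparison was not matched for count level. The largest SDs were those of genes of low level, with 1.13 for *Gdf15* and 0.49 for *Dglucy* in the control and 0.56 for *Fas* with LiCl. *Plk3* followed with 0.36 with LiCl and *Perp* with 0.28 in the control. With 3 samples against 3, the smallest p of an exact permutation test on one gene is 0.1, so p-values were taken from the model over all genes.

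Some LiCl libraries stood apart in genes of another tissue. The summed level of 8 skeletal muscle markers was 34.6 and 70.0 CPM in LiCl replicates 1 and 3, against 7.40 to 9.45 CPM in the other samples. When both libraries were left out, 11 p53 pathway genes were higher and 4 lower, against 10.4% and 10.9% of all genes tested in that fit, in which the single LiCl library left was assumed to vary like the controls. Of the p53 pathway genes, 3 were then called higher above a log2 fold change of 1 and *Fas* was called lower. *Mdm4*, *Ei24*, *Ddb2*, *Polk*, *Rrm2b*, *Bbc3*, *Perp* and *Gdf15* no longer passed, with adjusted p from 0.055 for *Rrm2b* to 0.19 for *Ddb2* (edgeR). The summed level of 8 epithelial markers was from 1074 to 1360 CPM in the control and from 840 to 881 CPM with LiCl, with 6 of the markers lower and *Epcam* higher. That of 6 mesenchymal markers was from 6158 to 6747 CPM in the control and from 4461 to 5108 CPM with LiCl, with 4 lower and *Vim* higher. No marker of these lists was at 0, but at this depth a level above 0 does not by itself show that a cell type was present. With the mean of the epithelial markers as a covariate, which was added once the data had been seen, 4 p53 pathway genes were higher, *Eda2r*, *Psrc1*, *Ccng1* and *Aen*, and 0 were lower (edgeR), with 11 and 1 at an unadjusted p under 0.05, and 2.02% of all genes passed. This covariate had a correlation of -0.937 with the group, so both can hardly be told apart in this fit. The part of the mesenchymal markers in the changes was not tested.

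Markers of other cell types overlapped between the groups in their summed level, but single markers changed. It was from 77.5 to 129 CPM in the control and from 66.3 to 92.5 CPM with LiCl for macrophages, and from 485 to 609 and from 438 to 541 CPM for the endothelium. It was from 458 to 673 and from 601 to 931 CPM for erythroid cells, from 158 to 188 and from 127 to 177 CPM for neural crest and neurons, and from 79.2 to 92.5 and from 74.8 to 94.0 CPM for nephron progenitors. Of the 7 macrophage markers, *Cx3cr1*, *C1qb* and *C1qc* were lower, with log2 fold changes of -1.24, -0.65 and -0.77, and *Adgre1* was higher with 0.58. *Tek* was lower among the 6 endothelial markers (-1.15), and *Cited1* and *Eya1* were lower (-1.29 and -0.36) and *Wt1* higher (0.65) among the 5 nephron progenitor markers. Among the 6 erythroid markers *Hba-a1* was higher (0.49), and their median log2 fold change was 0.55. Of these 6, 4 were higher at an unadjusted p under 0.05 and 1 was higher with DESeq2. None of the 6 neural markers passed the test, with 1 lower at an unadjusted p under 0.05 and 1 lower with DESeq2. The part of these markers in the changes of the p53 pathway genes was not tested.

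Since many of these genes are known as direct targets of p53, their promoter windows were read from RefSeq, from 250 bases before to 50 bases after each gene start. Of the 34 genes, 26 had a window. Each window was searched for the p53 half-site, the consensus motif of 10 letters that p53 binds in pairs, which is its own reverse complement, so that a search of one strand covers both. It was found in 10 of the 26 genes (38.5%), and in 9.55% of the 27025 genes with a window and 8.36% of the 32851 windows. The list was chosen for p53 targets, so this share is a description. Each match is to a single half-site, and binding of p53 to it was not tested. Only exact matches were marked, so a partner site with a mismatch beside a match would not show. Of 13 genes with a window that were higher after LiCl, 7 held the motif. It was also found in 1 of 4 lower genes and in 2 of 9 genes that did not pass the test or were not tested.

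The whole windows of *Eda2r*, *Gdf15* and *Psrc1*, the 3 tested genes with a window that had the largest log2 fold change, and of *Mdm2*, the feedback gene, are shown from 5′ to 3′ with the half-site in capitals (RefSeq, GRCm38.p6, an older build than that of the counts). Their positions are chrX:97377160-97377459 (minus strand), chr8:70632407-70632706 (minus strand), chr3:108383554-108383853 (plus strand) and chr10:117710709-117711008 (minus strand). *Gdf15* and *Psrc1* have 2 windows each, of which one is shown. The windows of *Eda2r*, *Gdf15* and *Psrc1* held no match, which says only that these letters are not in this stretch. The half-site of *Mdm2* began 186 bases before the start. Sequence outside this window was not searched, so sites elsewhere in the gene are not shown.
Eda2r: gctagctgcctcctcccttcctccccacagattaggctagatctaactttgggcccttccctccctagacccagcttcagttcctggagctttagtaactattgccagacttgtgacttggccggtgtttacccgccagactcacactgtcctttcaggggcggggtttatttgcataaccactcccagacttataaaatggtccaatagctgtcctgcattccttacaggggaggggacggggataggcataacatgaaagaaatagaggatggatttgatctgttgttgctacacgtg
Gdf15: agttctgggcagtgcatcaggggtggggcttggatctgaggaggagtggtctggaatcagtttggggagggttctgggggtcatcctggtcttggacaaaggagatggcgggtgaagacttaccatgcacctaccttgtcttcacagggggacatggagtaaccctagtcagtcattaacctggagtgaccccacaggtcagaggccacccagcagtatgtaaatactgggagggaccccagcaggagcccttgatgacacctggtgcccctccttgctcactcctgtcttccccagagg
Psrc1: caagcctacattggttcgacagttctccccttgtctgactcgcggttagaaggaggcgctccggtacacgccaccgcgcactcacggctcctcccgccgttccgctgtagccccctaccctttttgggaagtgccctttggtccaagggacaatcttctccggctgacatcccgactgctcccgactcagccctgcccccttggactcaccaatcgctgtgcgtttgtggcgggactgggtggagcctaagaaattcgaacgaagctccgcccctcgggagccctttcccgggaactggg
Mdm2: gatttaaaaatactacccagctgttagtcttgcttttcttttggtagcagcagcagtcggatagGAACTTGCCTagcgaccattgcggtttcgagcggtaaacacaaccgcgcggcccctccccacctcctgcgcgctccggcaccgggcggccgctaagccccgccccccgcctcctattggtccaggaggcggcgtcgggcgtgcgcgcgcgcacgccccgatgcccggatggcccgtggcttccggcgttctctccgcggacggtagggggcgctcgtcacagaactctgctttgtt

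The other genes with a match, chosen after their windows were searched, are shown as stretches around it. *Trp53*, *Ccng1*, *Bax*, *Aen*, *Ei24* and *Polk* were higher after LiCl, *Sesn1* was lower, and *Ppm1d* and *Gadd45a* did not pass the test. The match of *Aen* lay 11 bases after one annotated start and 121 bases before another, and that of *Ei24* began 10 bases before the start. *Trp53* had its match 75 bases before the start, *Gadd45a* 40, *Ppm1d* 132, *Sesn1* 173, *Ccng1* 185, *Bax* 201 and *Polk* 231 bases before a start. The stretches lie at chr11:69580254-69580323 (plus strand), chr11:40755432-40755501 (minus strand), chr7:45467060-45467129 (minus strand), chr7:78895907-78895976 (plus strand), chr9:36797305-36797374 (minus strand), chr13:96519379-96519437 (minus strand), chr10:41887236-41887305 (plus strand), chr11:85311092-85311161 (plus strand) and chr6:67037408-67037477 (minus strand), in the order shown.
Trp53: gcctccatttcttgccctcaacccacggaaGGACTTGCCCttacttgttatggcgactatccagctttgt
Ccng1: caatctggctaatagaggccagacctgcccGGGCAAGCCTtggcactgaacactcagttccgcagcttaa
Bax: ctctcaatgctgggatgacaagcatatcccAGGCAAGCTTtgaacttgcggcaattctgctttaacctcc
Aen: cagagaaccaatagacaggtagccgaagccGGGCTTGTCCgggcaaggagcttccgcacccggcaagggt
Ei24: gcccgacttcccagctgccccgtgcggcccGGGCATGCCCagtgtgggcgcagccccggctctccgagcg
Polk: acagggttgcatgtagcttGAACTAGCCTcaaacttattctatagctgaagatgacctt
Sesn1: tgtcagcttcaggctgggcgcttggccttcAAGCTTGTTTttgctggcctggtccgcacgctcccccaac
Ppm1d: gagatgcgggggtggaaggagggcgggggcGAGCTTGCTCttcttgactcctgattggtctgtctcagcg
Gadd45a: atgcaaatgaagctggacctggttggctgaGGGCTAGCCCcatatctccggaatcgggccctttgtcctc

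The mRNA of p53 itself was higher after LiCl. *Trp53* (ENSMUSG00000059552) had 128, 144 and 132 CPM in control replicates 1 to 3 and 207, 191 and 196 CPM in LiCl replicates 1 to 3. All LiCl samples lay above all controls. The mean rose from 135 ± 8.24 to 198 ± 8.05 CPM (SD, n = 3), a change of 0.55 ± 0.06 (SE) on the log2 scale (adjusted p = 8.1e-05 by edgeR). Reads of *Trp53* and *Mdm4* could be shared with annotated pseudogenes of these genes.

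Of the 4 feedback genes, 3 were higher and *Ppm1d*, which encodes a phosphatase that dampens the DNA damage response, did not pass the test (log2 fold change 0.04, standard error 0.06). The higher genes are 75% of these 4, against 21.1% of all genes tested. *Ccng1*, which encodes cyclin G1, had 89.3, 74.2 and 75.7 CPM in the controls and 142, 134 and 139.6 CPM with LiCl. The LiCl samples did not overlap with the controls, and the log2 fold change was 0.80 (standard error 0.07, adjusted p = 3.7e-05, edgeR). *Mdm2*, the ubiquitin ligase gene shown above with a promoter window, had 66.5, 64.7 and 62.7 CPM in the controls and 83.7, 78.8 and 78.3 CPM with LiCl. It rose in all 3 LiCl samples, but its change of 0.31 ± 0.05 (SE) on the log2 scale (adjusted p = 0.0010, edgeR) was smaller than that of *Ccng1* or *Trp53*. *Mdm4*, which encodes an inhibitor of p53 without strong ligase activity of its own, had a change of 0.25 ± 0.06 (SE) on the log2 scale.

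**Figure D2:**
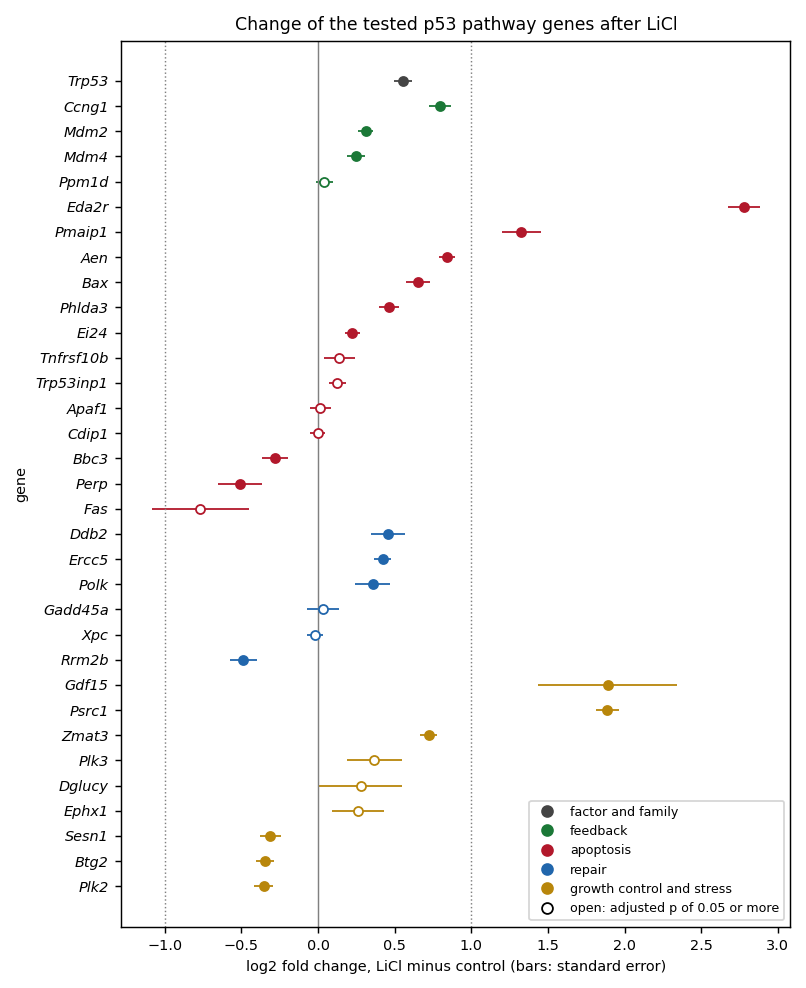
Log2 fold change of the 33 tested genes, LiCl minus control, with bars for the standard error, colors for the groups of genes and open points where the adjusted p did not pass. *Eda2r* stood at 2.78, and *Fas* at -0.77 had the lowest value with one of the widest bars.

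Among the 13 apoptosis genes, 6 were higher, 2 were lower and 5 did not pass the test. Shares were 46.2% higher and 15.4% lower, against 21.1% and 22.4% of all genes tested. The largest change of all 33 genes was that of *Eda2r* (ENSMUSG00000034457), which encodes a receptor of the TNF receptor superfamily for the A2 form of ectodysplasin. It had 3.86, 4.18 and 3.16 CPM in the controls and 25.1, 25.6 and 26.3 CPM with LiCl. The LiCl samples were close to each other and far above the controls, a 6.86-fold change (log2 fold change 2.78, standard error 0.11, adjusted p = 3.2e-07, edgeR). When single replicates were omitted, the log2 fold change stayed between 2.68 and 2.88. Its ligand gene *Eda* had a log2 fold change of 0.03 and did not pass the test.

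The death receptor genes *Tnfrsf10b* and *Fas* did not pass the test. *Tnfrsf10b*, which encodes the mouse TRAIL receptor, had 18.4 ± 2.16 CPM in the control and 20.2 ± 1.60 CPM with LiCl (SD, n = 3), and its groups overlapped. Its log2 fold change of 0.14 was 0.24 without control replicate 1, 0.08 without control replicate 2 and 0.09 without LiCl replicate 1. *Fas* had 1.04, 1.13 and 1.27 CPM in the controls and 0.93, 0.39 and 0.67 CPM with LiCl. Its LiCl samples all lay below the controls, but the adjusted p of 0.077 (edgeR) did not pass. Without LiCl replicate 1 it did, at an adjusted p of 0.032 (edgeR) and a log2 fold change of -1.10, whereas without LiCl replicate 2 these were 0.21 and -0.50. The ligand genes *Fasl* and *Tnfsf10* were too low to be tested.

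The BCL2 family genes of the list, which act at the mitochondrial membrane, moved in both directions. *Pmaip1* (NOXA), which encodes a BH3-only protein, had 4.38, 5.37 and 4.30 CPM in the controls and 11.2, 11.02 and 13.0 CPM with LiCl. The LiCl samples were all above the controls, a 2.51-fold change (log2 fold change 1.33, standard error 0.13, adjusted p = 5.2e-05, edgeR). *Bax*, which encodes a pore-forming effector, had 31.4, 34.5 and 33.3 CPM in the controls and 56.2, 46.3 and 53.3 CPM with LiCl. It was higher in every LiCl sample, with a change of 0.65 ± 0.08 (SE) on the log2 scale (adjusted p = 1.8e-04, edgeR). *Bbc3* (PUMA), which encodes another BH3-only protein, went the other way, from 17.8 ± 0.98 to 14.7 ± 1.22 CPM (SD, n = 3), which is -0.28 on the log2 scale with an adjusted p of 0.026 (edgeR). This call was lost without control replicate 1 or 2 or LiCl replicate 2 or 3, with adjusted p up to 0.11, and with DESeq2 (adjusted p = 0.053).

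Of the other apoptosis genes, *Aen*, which encodes an exonuclease induced by p53, had the tightest replicates in the control. It had 32.2, 31.7 and 31.6 CPM in the controls and 58.9, 56.7 and 55.2 CPM with LiCl. The increase was present in all 3 LiCl samples (log2 fold change 0.84, standard error 0.05, adjusted p = 3.1e-06, edgeR). *Phlda3*, whose product inhibits AKT, and *Ei24* rose by 0.46 and 0.22 on the log2 scale. *Apaf1*, which encodes the scaffold of the apoptosome, and *Trp53inp1* had log2 fold changes of 0.02 and 0.13 and did not pass the test. Neither did *Cdip1*, which had an adjusted p of 0.97 (edgeR) and overlaps with *Hmox2* on the opposite strand.

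*Perp*, which encodes a membrane protein of desmosomes and is a target of both p53 and p63 in epithelia, was lower after LiCl. It had 11.5, 11.2 and 8.12 CPM in the controls and 7.68, 7.33 and 6.59 CPM with LiCl. Every LiCl value was below every control value, but control replicate 3 lay close to the LiCl samples (log2 fold change -0.51, standard error 0.14, adjusted p = 0.019, edgeR). The call was lost without control replicate 1 or 2 or LiCl replicate 3, with adjusted p up to 0.070 (edgeR). With the epithelial markers as a covariate, the log2 fold change was 0.38 with an adjusted p of 0.55 (edgeR).

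**Figure D3:**
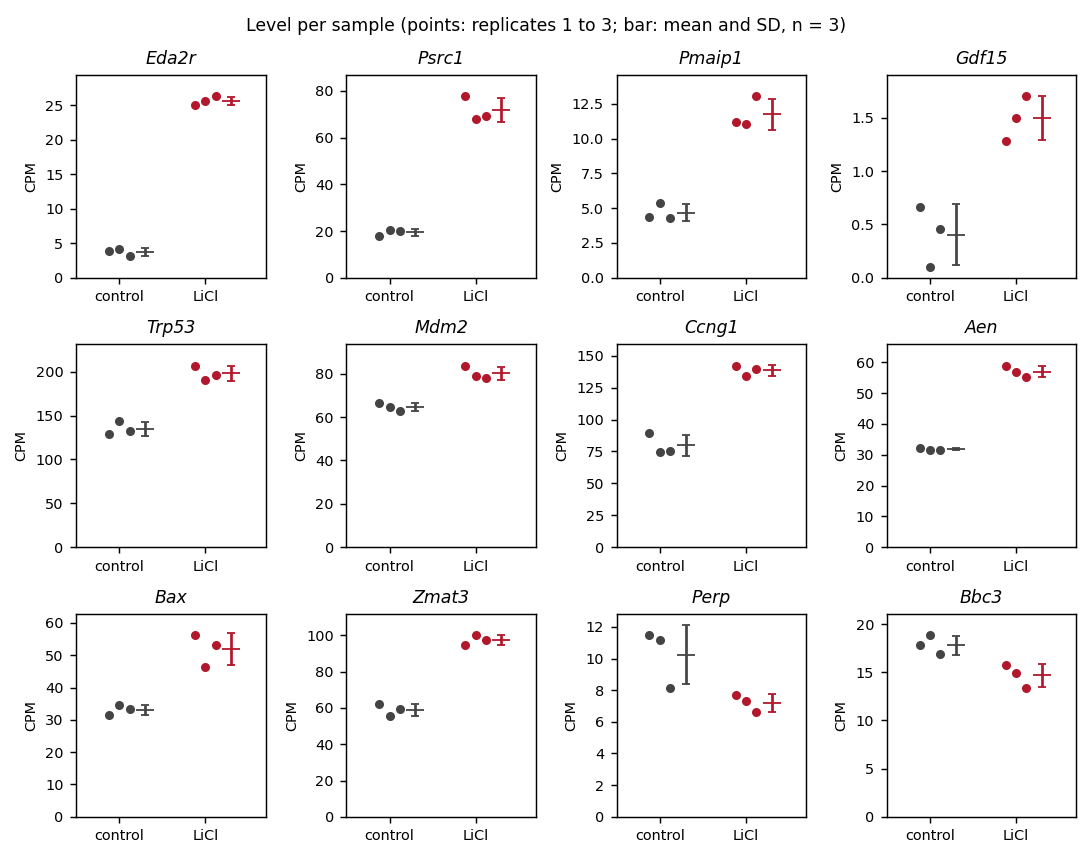
CPM per sample of 12 p53 pathway genes, with points for replicates 1 to 3 from left to right and a bar for the mean and SD (n = 3), each axis starting at 0. In *Eda2r*, *Psrc1*, *Pmaip1* and *Gdf15* the LiCl samples lay above the controls by more than their spread, whereas *Perp* and *Bbc3* were lower.

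The 6 repair genes were split, with 3 higher, *Rrm2b* lower and 2 that did not pass the test. That is 50% higher and 16.7% lower, against 21.1% and 22.4% of all genes tested. *Ddb2* and *Ercc5*, whose products act in nucleotide excision repair, had log2 fold changes of 0.46 and 0.42. Without LiCl replicates 1 and 3, the log2 fold change of *Ddb2* was 0.25 (adjusted p = 0.19, edgeR). *Ddb2* was 11.3 ± 0.25 CPM in the control and 15.5 ± 2.16 CPM with LiCl, and *Ercc5* was 42.6 ± 1.88 and 57.0 ± 1.97 CPM (SD, n = 3). *Ddb2*, with 2384 counts over all samples, overlaps with *Acp2* on the opposite strand, with 18001 counts, and the strand setting of the counting is not given in the sources used here, so the value of *Ddb2* is uncertain. *Polk*, which encodes a polymerase that copies damaged DNA, had a log2 fold change of 0.36 with an adjusted p of 0.028 (edgeR), which was lost without control replicate 2 or 3 or LiCl replicate 1 or 2 (up to 0.089).

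*Rrm2b*, which encodes the p53-inducible subunit of ribonucleotide reductase, was the exception among the repair genes. It had 16.6, 15.6 and 15.7 CPM in the controls and 11.5, 12.3 and 10.4 CPM with LiCl. All LiCl samples lay below all controls, with a change of -0.49 ± 0.09 (SE) on the log2 scale (adjusted p = 0.0019, edgeR). *Xpc*, a damage recognition gene, and *Gadd45a*, a stress gene, had log2 fold changes of -0.02 and 0.03 and overlapping groups. *Gadd45a* had 6.82 ± 0.26 CPM in the control and 6.97 ± 0.19 CPM with LiCl (SD, n = 3). *Gadd45a* and *Rrm2b* overlap with genes on the opposite strand that had fewer counts.

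Of the 9 genes of growth control and stress, 3 were higher, 3 were lower and 3 did not pass the test. That is 33.3% each way, against 21.1% higher and 22.4% lower of all genes tested. *Psrc1* (ENSMUSG00000068744), which encodes a microtubule-binding protein of the mitotic spindle, had 17.7, 20.3 and 20.1 CPM in the controls and 77.7, 68.1 and 69.3 CPM with LiCl. The LiCl samples were all far above the controls, a 3.70-fold change (log2 fold change 1.89, standard error 0.08, adjusted p = 4.0e-07, edgeR). A list of 12 mitotic genes, chosen after seeing the data, moved with it. All 12 were higher, with a median log2 fold change of 1.33, and their summed level was from 704 to 768 CPM in the control and from 1745 to 2024 CPM with LiCl. Their part in the change of *Psrc1* was not tested.

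*Gdf15*, which encodes a secreted stress cytokine, was rare in all samples. It was counted 19, 3 and 14 times in the controls and 40, 42 and 48 times with LiCl. The groups did not overlap, and the log2 fold change was 1.89 (standard error 0.45, adjusted p = 0.0085, edgeR), with values from 1.42 without control replicate 2 to 2.42 without control replicate 1. When LiCl replicates 1 and 3 were both left out, its adjusted p was 0.073 (edgeR). *Zmat3*, which encodes an RNA-binding zinc finger protein, had 62.2, 55.7 and 59.3 CPM in the controls and 94.6, 100.1 and 97.5 CPM with LiCl. It was higher in every LiCl sample, with a change of 0.72 ± 0.05 (SE) on the log2 scale (adjusted p = 1.3e-05, edgeR).

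The lower genes of this group were *Btg2*, an antiproliferative gene, *Plk2*, a polo-like kinase gene, and *Sesn1*, a sestrin gene that links p53 to the TOR pathway. *Plk2* had 165 ± 8.61 CPM in the control and 129 ± 8.33 CPM with LiCl, *Btg2* had 37.3 ± 1.47 and 29.3 ± 1.01 CPM, and *Sesn1* had 53.9 ± 2.34 and 43.4 ± 3.55 CPM (SD, n = 3). The log2 fold changes were -0.36, -0.35 and -0.31, and none of the 3 genes had overlapping groups. *Plk3*, *Ephx1* and *Dglucy* had log2 fold changes of 0.37, 0.26 and 0.28 and did not pass the test. The log2 fold change of *Dglucy* was 0.17, 0.64 and 0.095 when control replicate 1, 2 or 3 was omitted. For *Plk3*, LiCl replicate 2 had 4.29 CPM, within the controls, whereas LiCl replicates 1 and 3 had 6.91 and 6.24 CPM. Without LiCl replicate 2 its adjusted p was 0.013 (edgeR), without LiCl replicate 1 its log2 fold change was 0.22, and with LiCl replicate 2 alone its log2 fold change was -0.06.

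**Figure D4:**
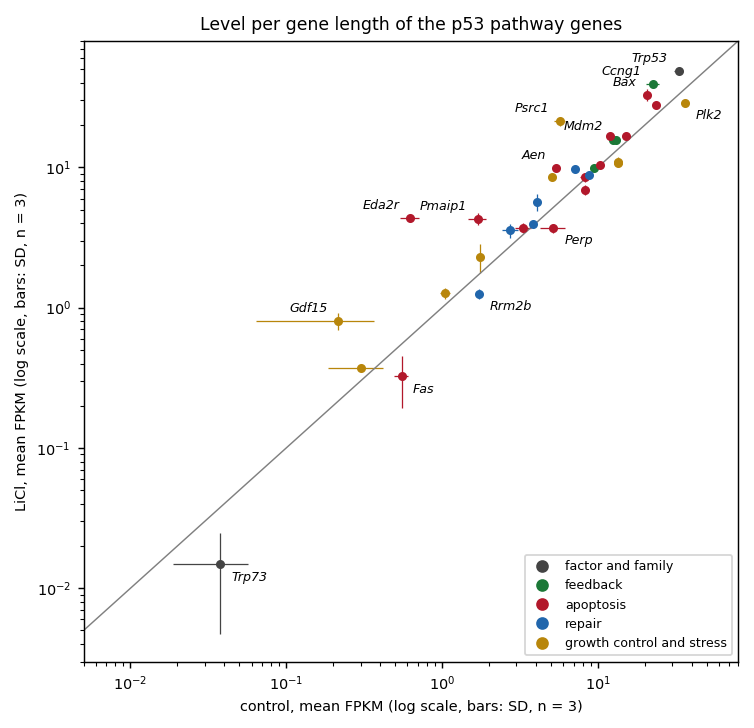
Mean FPKM of the 34 genes with LiCl against the control, on log axes, with bars for the SD (n = 3) and a line of equal level. *Eda2r* lay farthest above the line among the genes tested, and *Trp53* was the most abundant with LiCl.

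To compare the levels of the genes with each other, the deposited FPKM values, which account for gene length, were used. In the control, *Plk2* had 36.4 ± 1.95 FPKM and *Trp53* 33.0 ± 2.21 FPKM (SD, n = 3), and their samples overlapped. *Ei24*, *Ccng1* and *Bax* followed with 23.7, 22.5 and 20.8 FPKM. With LiCl, *Trp53* was first with 49.0 ± 2.02 FPKM, before *Ccng1* with 39.5 ± 1.23 FPKM and *Bax* with 33.0 ± 3.26 FPKM. *Psrc1* moved from position 18 to 6 among the 34 genes, from 5.70 ± 0.46 to 21.4 ± 1.55 FPKM. *Eda2r* moved from position 30 to 22, from 0.63 ± 0.09 to 4.36 ± 0.11 FPKM, so that its level with LiCl was close to that of *Pmaip1* at 4.31 ± 0.42 FPKM. *Fas*, *Dglucy*, *Gdf15* and *Trp73* were below 1 FPKM in both groups.

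Other genes of the pathway, listed with earlier results of these data known, are given beside these genes, and those with an absolute log2 fold change under 1 were named after their values were seen. Of 13 tested further p53 targets, 6 were higher (46.2%) and 0 lower, against 21.1% and 22.4% of all genes tested. Their median log2 fold change was 0.16. At an unadjusted p under 0.05, 6 were higher and 0 lower. DESeq2 called 6 higher and 0 lower, against 11.5% and 10.5% of the 32775 genes in its fit. *Cdkn1a*, which encodes the cell cycle inhibitor p21, rose from 23.6 ± 4.65 to 58.5 ± 2.93 CPM (SD, n = 3), a change of 1.31 ± 0.12 (SE) on the log2 scale. *Gtse1*, a target that is also a gene of G2 and mitosis, had a log2 fold change of 1.39. *Pidd1*, *Sesn2*, *Rps27l* and *Cyfip2* rose by 0.75, 0.67, 0.44 and 0.26 on the log2 scale, whereas *Fdxr*, *Tigar*, *Triap1*, *Pml*, *Slc19a2*, *Steap3* and *Bid* had values from -0.16 to 0.16 and did not pass the test. *Sesn2* and *Sesn1*, which belong to the same family, moved in opposite directions.

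Upstream of p53, 3 of 13 tested kinase and regulator genes were higher and 0 lower. The higher genes are 23.1% of this list, near the 21.1% of all genes tested. These were the checkpoint kinase genes *Chek2* and *Chek1*, with log2 fold changes of 0.88 and 0.70, and *Rpl5*, a ribosomal protein gene whose product binds MDM2, with 0.16. *Atm*, *Atr* and *Ep300* had log2 fold changes of 0.34, 0.02 and 0.03 and did not pass the test. *Prkdc*, with -0.50 and overlapping groups, did not pass either (adjusted p = 0.058, edgeR). At an unadjusted p under 0.05, 4 genes of this list were higher and 1 was lower.

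Of 12 further BCL2 family genes, which include *Bid* of the p53 targets, 2 were higher and 4 lower, with a median log2 fold change of -0.04. These are 16.7% and 33.3%, against 21.1% and 22.4% of all genes tested. *Hrk*, a BH3-only gene, had the largest increase, from 3.12 ± 0.51 to 5.98 ± 0.55 CPM (SD, n = 3), a change of 0.94 ± 0.15 (SE) on the log2 scale, and *Bak1* had 0.18. *Bmf*, another BH3-only gene, fell by 0.43 on the log2 scale, the survival genes *Bcl2l1* and *Bcl2l2* by 0.27 and 0.20, and *Bad* by 0.27. Of 12 caspases and their regulators, 2 were lower, *Casp8* and *Casp9*, with log2 fold changes of -0.46 and -0.23, and 10 did not pass the test, among them *Casp2*, *Cycs*, *Diablo* and *Xiap*. The lower genes are 16.7% of this list, against 22.4% of all genes tested. The apoptosome gene *Apaf1* and the initiator gene *Casp9*, whose products act together, had log2 fold changes of 0.02 and -0.23.

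**Figure D5:**
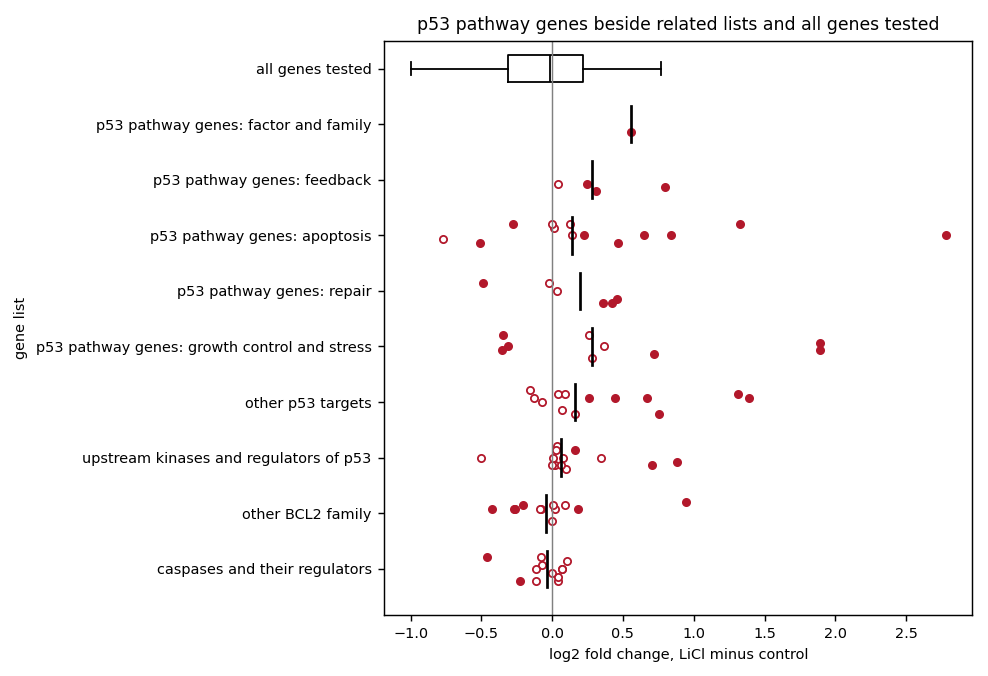
Log2 fold change of single genes, LiCl minus control, for the 5 groups of p53 pathway genes and 4 related lists, with open points where the adjusted p did not pass and a line at each median. The box of all genes tested runs from -0.31 to 0.22, its quartiles, with whiskers from -0.996 to 0.77, the 5th and the 95th percentiles.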

How the data were processed

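RNA-Seq was done on 3 LiCl and 3 control samples. The deposited values are raw counts per gene, with Ensembl identifiers, and FPKM, which the authors computed from counts divided by DESeq2 size factors and by gene length (all implied lengths with more than 50 counts were whole within 0.01 bases). The submitters' processing notes name fastp 0.23, STAR 2.7, featureCounts 2.0, DESeq2 1.40 and GRCm39, whereas the methods of the study name HISAT2 as aligner. Libraries were stranded, and the strand setting of the counting and the annotation release are not given in the sources used here.

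Symbols were matched for 52073 of 56748 identifiers, and the others held 0.191% of the counts. CPM were computed with TMM factors. Counts were fitted with edgeR 4.0.16 (R 4.3.3, filterByExpr, TMM, quasi-likelihood test), with Benjamini-Hochberg adjustment over all 18188 genes tested. Calls needed an adjusted p under 0.05, and where stated an absolute log2 fold change over 1. DESeq2 1.42.0, limma 3.58.1 on log2(FPKM + 1) and log2(FPKM + 0.1), other normalizations and filters, a replicate block and leaving out replicates were the alternatives.

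The p53 pathway genes and the lists of related genes and markers were chosen with earlier results of these data known. All 34 genes are accounted for. Values per sample are given for those past an adjusted p of 0.05 with an absolute log2 fold change of at least 0.5, and for *Mdm2*, and *Fas*, *Rrm2b*, *Plk3* and *Trp73* were added after their values were seen. Replicates within a group differed by more than sampling noise. Some genes of the list of caspases and their regulators are not reported here and were left out of its counts.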

Additional observations from a re-analysis of the deposited data

How the results depend on the processing

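Of 556 values of single p53 pathway genes under the settings other than the epithelial covariate, 528 kept their side of the threshold, 24 lost the call, 4 gained one and 0 of those past the threshold changed sign. *Apaf1*, *Cdip1*, *Xpc*, *Gadd45a* and *Plk3*, which did not pass the test, changed sign under some settings. The count of genes called higher above a log2 fold change of 1 was 2 instead of 4 with limma on log2(FPKM + 1), both with a filter on low values and without, and 2 when edgeR tested against a log2 fold change of 1. *Eda2r* and *Psrc1* were called in each of them. With this pseudocount the log2 fold change of *Pmaip1* was 0.98. With log2(FPKM + 1) and no filter, 3 genes instead of 6 were lower and the median log2 fold change was 0.19. The count called lower was 1, *Fas*, when LiCl replicates 1 and 3 were both left out. When each replicate was left out in turn, from 4 to 4 genes were called higher and from 0 to 1 lower, with 1 without LiCl replicate 1, from 15 to 17 were higher and from 4 to 7 lower at the adjusted p alone, and the median ranged from 0.23 to 0.31. With the epithelial markers as a covariate, chosen after seeing the data, 4 genes were higher and 0 lower at the adjusted p (edgeR, with 1 lower at an unadjusted p under 0.05), the median was 0.48, 17 genes lost the call and *Perp* changed sign, with a log2 fold change of 0.38. The cause was not tested. The replicate block left the counts at 4, 0, 16 and 6 and the median at 0.26, and changed no call among them. Deviations of samples with the same number had correlations of 0.03, -0.09 and 0.10, so no pairing by number was seen. A shared litter or culture day cannot be judged from these values. Depth limits *Gdf15*, *Fas*, *Dglucy* and *Trp73*, which had few counts.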
